A study of Mus musculus with 7 samples.

Results

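The genes described here belong to insulin-like growth factor (IGF) binding and signalling: the ligand gene Igf1, the binding protein genes Igfbp1 to Igfbp5, the adaptor gene Irs1, the kinase gene Akt1 and the feedback gene Socs2. They were taken by name from the platform annotation, and all 9 were found, with 66 of the 65535 probe sets of the table and among 5017 genes measured. Each probe set covers part of a gene, about an exon. The samples were dissected retinal pigment epithelium (RPE), the pigmented layer behind the photoreceptors, from mouse pups at postnatal day 5. Mice with 1 floxed Dicer1 allele and a Dct-cre transgene (Dicer1 flox/+ Dct cre) had been mated with Dicer1 flox/flox mice. The 3 Dicer1-deficient arrays came from pups labelled Dicer1loxP/loxP;Dct-Cre, in which Cre is driven by the promoter of the pigment cell gene Dct, and the 4 control arrays from pups labelled only as control RPE, whose genotype is not given. Dicer1 encodes the enzyme that makes mature microRNAs, and the series asks what its loss does to RPE RNA.

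IGF ligands act through a receptor kinase at the cell surface. The receptor recruits IRS adaptors, which switch on phosphoinositide 3-kinase and then the AKT kinases and mTOR, and so promote growth and survival. Binding proteins in the extracellular fluid hold the ligands, extend their half-life and keep them from or carry them to the receptor, and several bind matrix or integrins and act without the ligand. In the eye, RPE, choroid and sclera exchange IGF signals, which have been studied in eye growth and in retinal survival. The receptors (Igf1r, Insr, Igf2r), Igf2, Irs2, Igfbp6 and Igfbp7 were not analysed here.

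Values are log2 signals, on which a difference of 1 is a doubling; the median over all probe sets and arrays was 6.22. Control 4 stood apart from the other arrays, with Pearson correlations over all probe sets of 0.943 to 0.951 against the other 6 and a median of 6.05 against 6.22 to 6.26, so results that rest on it are given with and without it. Dicer1 itself read 10.27, 10.65, 10.69 and 10.88 in control and 10.53, 10.71 and 10.47 in Dicer1-deficient arrays, overlapping between the groups, with a difference of -0.05 (limma adjusted p = 0.961). Which stretch of the gene is floxed is not labelled, so this reading does not check the deletion. The measured RPE markers were bright, with a mean over 8 of them (Kcnj13, Pmel and Rdh5 among them) of 11.31 to 11.49 in control and 10.86 to 11.05 in Dicer1-deficient arrays. All 8 were lower at the brightest probe set and 1, Kcnj13, was called. When probe sets were averaged, Kcnj13 (-1.18, limma adjusted p = 8.11e-04), Rdh5 (-0.725, 0.00612), Rdh10 (-0.54, 0.0383) and Sulf1 (-0.84, 0.0038) were called. Of all genes 2.83% were called lower on that mean. Pmel differed by only -0.05 at its brightest probe set, and Tspan10 had 0.04 on the mean of its probe sets. Over all 5017 genes 2602 were lower and 2415 higher, and 2.33% were called, 1.42% higher and 0.917% lower. Fibroblast and scleral markers were also bright, at a mean of 11.72 to 11.84 and 11.31 to 11.58, with 10 of 11 lower and none called at the brightest probe set. The 3 melanocyte and Schwann cell markers lay lower too (8.83 to 9.26 against 8.33 to 8.47). With probe sets averaged, Col6a3, Omd, Fmod, Pax3 and Erbb3 of these lists were called lower. Lens markers lay higher with wide spread (5.91 to 7.61 against 6.88 to 8.54, 6 of 7 higher, none called), as did retinal neuron and photoreceptor markers (5.70 to 6.57 against 6.37 to 6.93, 5 of 7 higher, none called at the brightest probe set). Of the latter, Tfap2b was called with probe sets averaged (0.81, limma adjusted p = 0.0437). The means of these 2 lists overlapped between the groups, as did those of the muscle, macrophage and endothelium lists. The part of any of these cell types in the results that follow was not tested, and in such bulk tissue fewer cells of a type and less RNA per cell cannot be told apart. The labels do not tie each array to its own animal, and the p-values reflect only how much the arrays of a group vary, which may be technical.

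The clearest difference was a rise of Igfbp2, and the gene that differed most in the opposite direction was Igfbp3. Igfbp2 was 1.66-fold higher in Dicer1-deficient RPE at its brightest probe set and was the 1 of 9 genes past the test (limma, Benjamini-Hochberg adjusted over all genes, threshold 0.05). Over all 5017 genes 2.33% passed, 1.42% higher and 0.917% lower. Igfbp3 was 1.45-fold lower and lay just outside the threshold. Igf1 had a smaller positive difference, Igfbp4 and Akt1 small negative ones whose groups did not overlap, and Irs1, Igfbp5, Socs2 and Igfbp1 differences smaller than the SD of the controls.

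**Figure D1:**
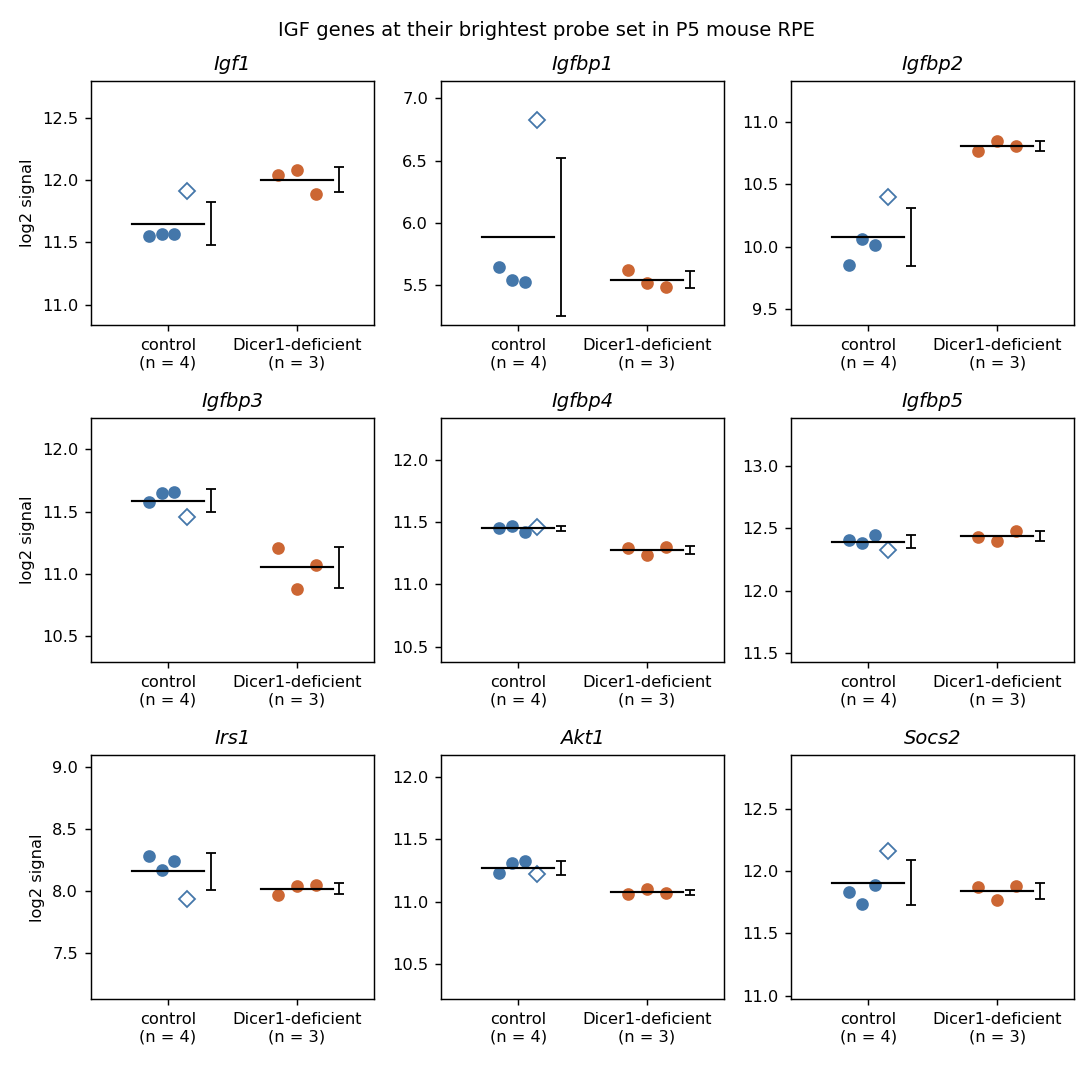
Log2 signal (y axis, the same span of values in each panel) of the 9 IGF genes at their brightest probe set in control (blue, n = 4) and Dicer1-deficient (orange, n = 3) arrays; lines are means, bars are SDs and the open diamond is control 4. The Dicer1-deficient arrays lie above all controls for Igfbp2 and below all controls for Igfbp3, Igfbp4 and Akt1.

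For 4 genes the control and Dicer1-deficient arrays separated fully at the brightest probe set, Igfbp2 on the higher side and Igfbp3, Igfbp4 and Akt1 on the lower. Over all genes 9.27% separated in this way with Dicer1-deficient arrays higher and 7.02% with them lower. The median log2 fold change of the 9 genes was -0.14, against -0.01 over all genes.

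Igfbp2 encodes a secreted binding protein that holds IGF2 in preference to IGF1 and carries a motif bound by integrins. Its brightest probe set read 9.85, 10.06, 10.01 and 10.40 in controls 1 to 4 and 10.77, 10.85 and 10.81 in the Dicer1-deficient arrays. The Dicer1-deficient arrays lay close together and above every control, of which control 4 was the nearest. The means were 10.08 ± 0.23 (SD, n = 4) and 10.81 ± 0.04 (SD, n = 3), a log2 fold change of 0.73 (SE 0.14, 95% interval 0.41 to 1.05; limma adjusted p = 0.044).

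All 4 probe sets of Igfbp2 gave a difference of this size, from 0.73 to 0.95 on the log2 scale, and at each of them every Dicer1-deficient array lay above every control. Over all probe sets 14.0% separated the groups, 7.35% with Dicer1-deficient arrays higher and 6.62% with them lower. In the fit of all probe sets with 1 gene symbol, 3 of the 4 passed after adjustment over 53644 probe sets (10347278 and 10347281, limma adjusted p = 0.0154 each, and 10347279, adjusted p = 0.029), and they were the only 3 of the 66 IGF probe sets to do so, where 1.06% of all probe sets passed, 0.656% higher. The fourth, 10347280, is the brightest and had an adjusted p of 0.088 in that fit. On the mean of its probe sets Igfbp2 went from 9.07 to 9.93, a log2 fold change of 0.86 (SE 0.08; limma adjusted p = 2.69e-04), where 5.86% of all genes passed, 3.03% higher and 2.83% lower.

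At the brightest probe set the call of Igfbp2 was narrow. It was lost after centring each array on its median (0.70, limma adjusted p = 0.126) and without any 1 of the 6 arrays other than control 4 (0.65 to 0.75, adjusted p from 0.0889 to 0.156), and without control 4 it held at 0.84 (adjusted p = 0.00427); on the mean of its probe sets it held under all of these (0.82 to 0.89, adjusted p from 8.01e-05 to 0.00324).

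Igfbp3 encodes the main carrier of IGFs in serum, which also acts on cells directly and can restrain growth. Its brightest probe set read 11.58, 11.65, 11.66 and 11.46 in controls 1 to 4 and 11.21, 10.88 and 11.07 in the Dicer1-deficient arrays. All Dicer1-deficient arrays lay below all controls, with control 4 again the nearest. The means were 11.59 ± 0.09 (SD, n = 4) and 11.05 ± 0.17 (SD, n = 3), a log2 fold change of -0.54 (SE 0.11, 95% interval -0.80 to -0.27; limma adjusted p = 0.0588).

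The 5 probe sets of Igfbp3 gave nearly the same difference, from -0.60 to -0.54, although their mean signals ran from 8.32 to 11.36, and the groups did not overlap at 3 of them. At 10384224 and 10384226 control 4 read 7.89 and 10.05, inside the range of the Dicer1-deficient arrays. None of the 5 passed over all probe sets with 7 arrays. Without control 4, Igfbp3 passed at its brightest probe set with a difference of -0.58 (limma adjusted p = 0.0259), as did 2 of its 5 probe sets, and its mean of probe sets moved from -0.57 (adjusted p = 0.0629) to -0.69 (adjusted p = 0.00381). With 7 arrays it also passed at its brightest probe set with the filter on dim genes (adjusted p = 0.0388), an intensity trend (0.0177) and array weights (0.00946), and without any 1 array other than control 4 it did not (adjusted p from 0.115 to 0.211). With control 4 left out 5.18% of all genes passed at the brightest probe set, 3.17% higher and 2.01% lower.

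The promoters of these genes are printed because their signals differed in opposite directions, with only Igfbp2 past the test. Each window runs from 250 bases before to 50 bases after the RefSeq start in the build GRCm38.p6, 5′ to 3′ on the gene's strand. Capitals in Igfbp2 mark the GC box, spelled GGGCGG, and the E-box, spelled CACGTG. Capitals in Igfbp3 mark the run TATATA. Each was searched on both strands. Igfbp2 has a second start in the table, which is not shown.
Igfbp2 promoter, chr1:72824230-72824529, plus strand: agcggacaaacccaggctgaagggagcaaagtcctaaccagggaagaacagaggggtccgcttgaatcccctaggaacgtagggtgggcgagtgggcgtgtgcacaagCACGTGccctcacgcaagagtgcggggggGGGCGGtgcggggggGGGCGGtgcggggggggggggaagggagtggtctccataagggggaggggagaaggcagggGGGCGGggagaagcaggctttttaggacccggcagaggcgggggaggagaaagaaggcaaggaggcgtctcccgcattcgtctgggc
Igfbp3 promoter, chr11:7213874-7214173, minus strand: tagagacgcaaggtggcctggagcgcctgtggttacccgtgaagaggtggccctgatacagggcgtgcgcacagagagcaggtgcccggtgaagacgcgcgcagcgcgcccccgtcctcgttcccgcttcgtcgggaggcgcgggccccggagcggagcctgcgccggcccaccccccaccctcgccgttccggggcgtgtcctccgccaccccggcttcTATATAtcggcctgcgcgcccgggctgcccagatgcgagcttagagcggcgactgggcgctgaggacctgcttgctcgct

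Both windows are rich in G and C, at 67.0% for Igfbp2 and 71.7% for Igfbp3, where the median of all 32851 promoters was 52.7%. The Igfbp2 window held 3 GC boxes and 1 E-box, motifs found in 35.7% and 7.15% of all promoters, and no TATA motif of either form (TATAAA or TATATA, in 13.6% and 5.67%). The Igfbp3 window held 1 TATATA and neither the GC box nor the E-box. Neither held CAAAACA, the core of the insulin response element described in the Igfbp1 promoter, or GTAAACA, a core bound by FOXO factors, which were in 6.28% and 3.65% of all promoters. Of the 10 promoters listed for 8 of the 9 genes, CAAAACA was found for Igfbp1 and Irs1 and GTAAACA for Akt1. A match or its lack is a description of these windows only.

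**Figure D2:**
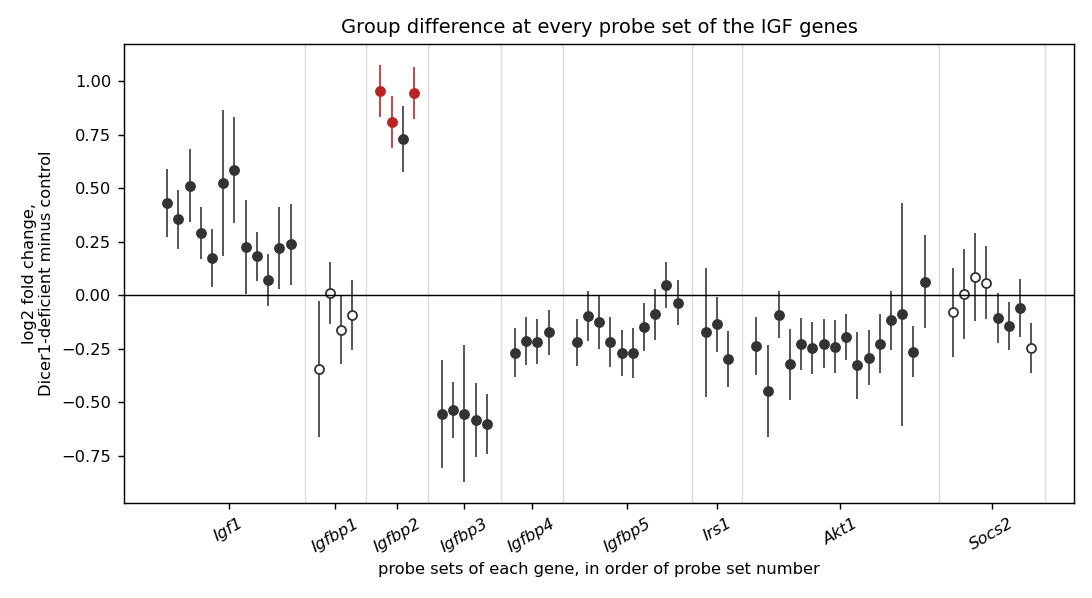
Log2 fold change (Dicer1-deficient minus control, y axis) with its standard error at each of the 66 probe sets of the 9 IGF genes, grouped by gene along the x axis in order of probe set number. Red marks the 3 probe sets past the test, all of Igfbp2, and open circles the 9 whose mean signal was below the table's median; the probe sets of Igfbp2 and Igf1 all lie above 0 and those of Igfbp3, Igfbp4 and Irs1 all below.

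Within each array, the signal of Igfbp2 minus that of Igfbp3 at the brightest probe sets was -1.73, -1.59, -1.65 and -1.06 in controls 1 to 4 and -0.44, -0.03 and -0.26 in the Dicer1-deficient arrays. This log2 ratio, chosen after the values were seen, was 1.27 higher in the Dicer1-deficient arrays, a 2.40-fold shift in favour of Igfbp2. It had to separate the groups, since Igfbp2 and Igfbp3 each separated them fully in opposite directions at these probe sets. Without control 4 the shift was 1.42 on the log2 scale. No test is given, since both genes were picked for how they differed. The ratio describes an unequal difference within arrays and does not set the level of one against the other, since probe sets differ in brightness per transcript.

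Igfbp2 and Igfbp5 are direct neighbours on chromosome 1, and Igfbp1 and Igfbp3 on chromosome 11, with no other gene between them in the RefSeq table. Igfbp5 encodes a binding protein that adheres to extracellular matrix. Its brightest probe set read 12.41, 12.38, 12.45 and 12.33 in controls 1 to 4, and 12.43, 12.40 and 12.48 in the Dicer1-deficient arrays. The groups overlapped, with a log2 fold change of 0.05 (95% interval -0.16 to 0.25; limma adjusted p = 0.92). Of its 10 probe sets 9 had negative differences, down to -0.27, the groups did not overlap at 4 of them and none passed, and the mean of probe sets gave -0.14 (adjusted p = 0.385). The sign for Igfbp5 thus differs between its brightest probe set and the mean.

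Igfbp1, a binding protein gene of the liver that insulin represses, had 4 probe sets, all below the table's median and not shown to be above background. Its brightest read 5.65, 5.54, 5.53 and 6.83 in controls 1 to 4 and 5.62, 5.52 and 5.49 in the Dicer1-deficient arrays. Control 4 alone was high, and controls 1 to 3 lay within the range of the Dicer1-deficient arrays or next to it. The log2 fold change was -0.34 with all arrays (95% interval -1.06 to 0.37; limma adjusted p = 0.747) and -0.03 without control 4 (95% interval -0.22 to 0.16).

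Igfbp4 encodes a binding protein that inhibits IGF action until the protease PAPP-A cuts it. It read 11.45, 11.47, 11.42 and 11.46 in controls 1 to 4 and 11.29, 11.24 and 11.30 in the Dicer1-deficient arrays. The arrays within each group lay close together, and the groups did not overlap at any of its 4 probe sets. The log2 fold change was -0.17 (SE 0.08, 95% interval -0.37 to 0.02; limma adjusted p = 0.407), so that the difference, though the groups separated at every probe set, did not pass. It passed when probe sets were averaged and control 4 left out (-0.20, adjusted p = 0.0298), a setting in which 17.0% of all genes passed, 6.74% higher and 10.3% lower.

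Igf1 encodes the ligand itself, which mesenchymal cells and macrophages make in many tissues. Its brightest probe set read 11.55, 11.57, 11.57 and 11.91 in controls 1 to 4 and 12.04, 12.08 and 11.89 in the Dicer1-deficient arrays. Controls 1 to 3 were almost equal and lay below all Dicer1-deficient arrays, and control 4 lay among these. The means were 11.65 ± 0.17 (SD, n = 4) and 12.01 ± 0.10 (SD, n = 3), a log2 fold change of 0.36 (SE 0.12, 95% interval 0.07 to 0.64; limma adjusted p = 0.228). Without control 4 it was 0.44 and passed (SE 0.08; adjusted p = 0.029). None of the 4 measured macrophage markers passed, where 2.33% of all genes did. Their median log2 fold change was 0.01, with 2 higher and 2 lower. Of the 11 fibroblast and scleral markers none passed at the brightest probe set and 10 had the opposite sign to Igf1, Col1a1 and Lum at only -0.008 and -0.041. With probe sets averaged all 11 were negative, Col1a1 at -0.361 and Lum at -0.115. Col6a3 (-0.845, limma adjusted p = 0.0167), Omd (-0.572, 0.042) and Fmod (-0.816, 0.024) passed on that mean. A part of either cell type in the Igf1 difference was not tested.

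All 12 probe sets of Igf1 had positive differences, from 0.07 to 0.58, at mean signals from 6.87 to 11.8. The groups did not overlap at 4 of them, and none passed with 7 arrays and 1 without control 4. Igfbp2 and Igf1 were the 2 genes whose probe sets all lay higher, and Igfbp3, Igfbp4 and Irs1 the 3 whose probe sets all lay lower. Among the 4208 genes with at least 3 probe sets, 7.32% had all of them higher and 9.34% all lower; probe sets of a gene read the same RNA and are not independent.

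Irs1, Akt1 and Socs2, which act downstream of or limit the signal, differed by at most 0.20 on the log2 scale at the brightest probe set. Irs1, whose product links the IGF1 and insulin receptors to phosphoinositide 3-kinase, read 8.28, 8.17, 8.24 and 7.94 in controls 1 to 4 and 7.97, 8.04 and 8.05 in the Dicer1-deficient arrays. Control 4 was the lowest of all 7, and controls 1 to 3 lay above the Dicer1-deficient arrays. The log2 fold change was -0.14 (95% interval -0.39 to 0.12; limma adjusted p = 0.712), with all 3 probe sets negative (-0.30 to -0.14), and without control 4 it was -0.21 (adjusted p = 0.159).

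Akt1 encodes the kinase that carries the signal to mTOR and FOXO factors. It read 11.23, 11.31, 11.33 and 11.22 in controls 1 to 4 and 11.06, 11.10 and 11.07 in the Dicer1-deficient arrays. The groups did not overlap, and each was tight. The log2 fold change was -0.20 (SE 0.09, 95% interval -0.40 to 0.01; limma adjusted p = 0.36). Of its 16 probe sets 15 were lower, with a median of -0.23, the groups did not overlap at 7, and none passed. Probe set 10402780 read 6.27 in control 4 against 8.19 to 8.53 in controls 1 to 3. On the mean of probe sets Akt1 had -0.22 (adjusted p = 0.219) with all arrays and -0.27 (adjusted p = 0.0185) without control 4.

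Socs2, a feedback inhibitor of the growth hormone receptor that limits IGF1 production, read 11.83, 11.74, 11.89 and 12.16 in controls 1 to 4 and 11.87, 11.77 and 11.88 in the Dicer1-deficient arrays. Control 4 was the highest and the other 6 arrays overlapped. The log2 fold change was -0.06 (95% interval -0.34 to 0.22; limma adjusted p = 0.925), and 0.02 without control 4. Of its 8 probe sets, 5 were below the table's median, 3 were higher and 5 lower, and none passed.

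**Figure D3:**
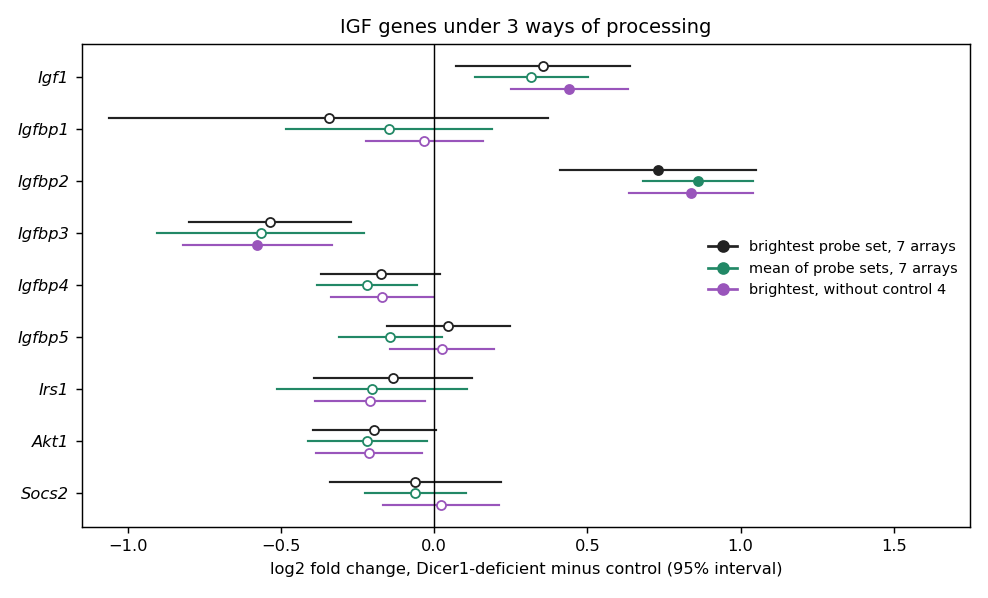
Log2 fold change (Dicer1-deficient minus control, x axis) with its 95% interval for the 9 IGF genes at the brightest probe set with 7 arrays (black), on the mean of probe sets with 7 arrays (green) and at the brightest probe set without control 4 (purple); filled circles passed the limma test. Igfbp2 passed in all of them, and Igf1 and Igfbp3 passed only at the brightest probe set without control 4.

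Without control 4, 3 of the 9 genes passed at the brightest probe set (Igfbp2 and Igf1 higher, Igfbp3 lower; 5.18% of all genes, 3.17% higher and 2.01% lower), and 7 of the 66 probe sets (4 of Igfbp2, 2 of Igfbp3 and 1 of Igf1; 2.30% of all, 1.19% higher and 1.11% lower). With probe sets averaged and control 4 left out, 6 passed, Igfbp2 and Igf1 higher and Igfbp3, Igfbp4, Irs1 and Akt1 lower, beside 17.0% of all genes (6.74% higher, 10.3% lower). In both settings 4 control arrays became 3 and the array removed is the one that stood apart.

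Variation of the difference along the probe sets of a gene did not pass a test for any of the 9 genes. In limma's diffSplice F test, which asks whether the group difference is the same at all probe sets of a gene, 0 of 9 passed, and 61 of 4470 genes did (1.36%). At an unadjusted p under 0.05 the count was also 0, the lowest being Igfbp5 at 0.0942. The brightest probe set of Igfbp5, set against its other probe sets, had an unadjusted p of 0.0129 (limma adjusted p = 0.66). The F test is too liberal on simulated data with the spread of these probe sets and independent noise. A second test, of each probe set's deviation from the mean of its gene in the same array, called no IGF probe set either (19 of 53097 probe sets called). A dim probe set flattens a difference, so these tests describe signals and not transcript forms.

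The other genes of the pathway were read from 6 lists, of which 36 of 112 genes were measured. Of these, 2 rose and 2 fell at their brightest probe set, beside 1.42% of all genes higher and 0.917% lower, and the median log2 fold change was -0.06. The lists were chosen with earlier results of these data known, so these counts are only a description. Among the 2 measured genes of ligand handling neither passed: Pappa2, a protease that cuts Igfbp3 and Igfbp5, had 0.29 and Stc2, which encodes an inhibitor of such proteases, 0.05, its control signal of 5.51 being below the table's median. None of the 7 receptor adaptors passed, with Shc3 at -0.37, Grb7 at 0.17 and Sos2 at 0.16.

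The phosphoinositide 3-kinase and Akt list held 2 of the 4 called genes, both phosphatases that remove the lipid signal. Inpp5k fell from 12.07 ± 0.20 (SD, n = 4) to 11.22 ± 0.16 (SD, n = 3), with no overlap, a difference of -0.85 (SE 0.14; limma adjusted p = 0.0247), and by more when its 15 probe sets were averaged (-1.14, adjusted p = 2.37e-04). Inpp5d (SHIP1), best known in blood cells, fell by 0.61 (SE 0.12; adjusted p = 0.047), but the mean of its 32 probe sets gave -0.09 (adjusted p = 0.813). Pik3ip1, whose product binds and inhibits phosphoinositide 3-kinase, went from 8.45 ± 0.29 (SD, n = 4) to 9.22 ± 0.21 (SD, n = 3) without overlap, a difference of 0.77 (adjusted p = 0.0763), and rose when its probe sets were averaged (0.64, adjusted p = 0.00297). The other 8 measured genes did not pass and included Pik3c2b at -0.41, which passed without control 4 (-0.36, adjusted p = 0.0367). Akt2 is counted by its annotated name at 1 probe set, though RefSeq places that gene on another chromosome than its neighbours in the table.

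The list of Akt and mTOR targets also held regulators of mTOR. Of its 9 measured genes 1 rose, Ddit4, a stress-induced inhibitor of mTOR complex activity. It went from 6.51 ± 0.12 (SD, n = 4), little above the table's median, to 7.10 ± 0.10 (SD, n = 3), a difference of 0.60 (SE 0.11; limma adjusted p = 0.0333). Foxo3 (0.15) and Mdm2 (0.27) did not pass. Of the 6 measured genes of the growth hormone and SOCS axis none passed, with Stat3 at -0.24, Socs7 at 0.23 (0.36 without control 4 and 0.09 without control 1) and Gh at -0.39. Gh had a control mean of 5.76, below the table's median, with control 4 alone at 6.69, and differed by -0.08 without it. Igf2bp1, which encodes a protein that binds Igf2 mRNA, rose by 1.09 on the log2 scale (adjusted p = 0.00902), and by 1.90 on the mean of its 16 probe sets.

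**Figure D4:**
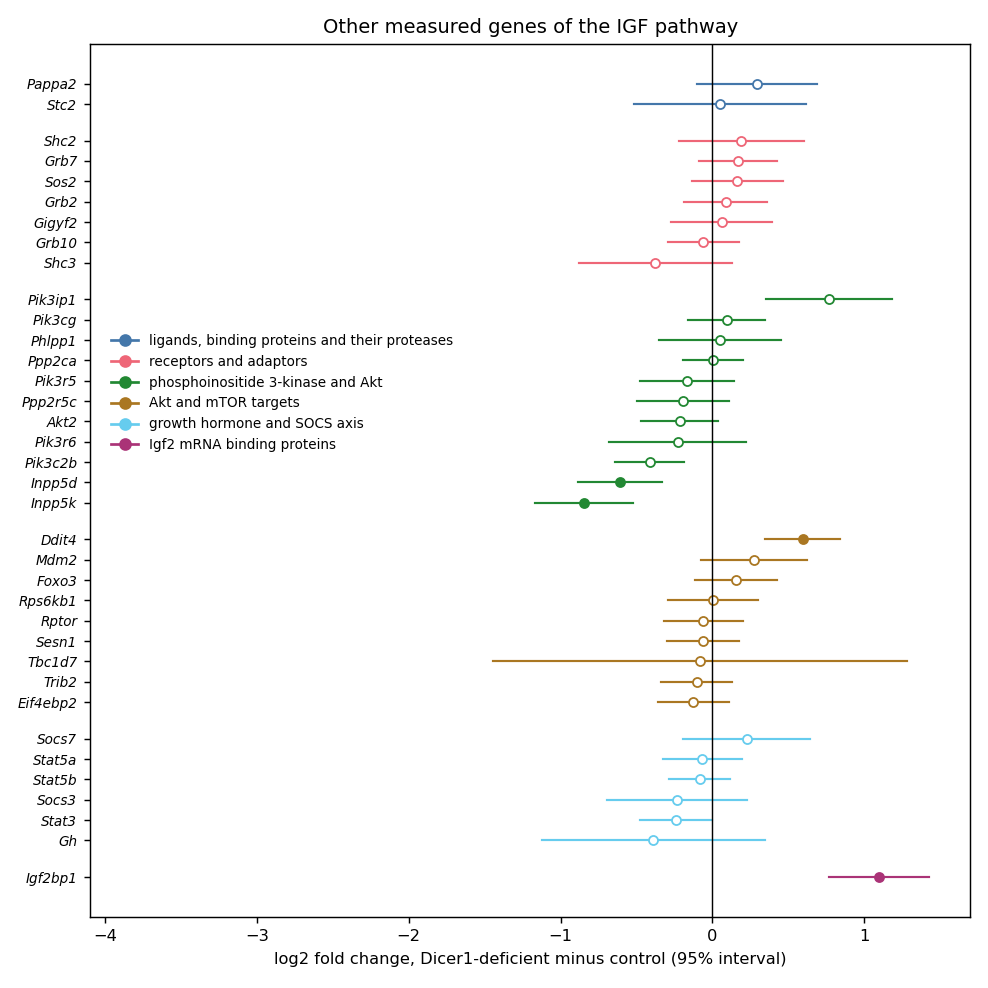
Log2 fold change (Dicer1-deficient minus control, x axis) with its 95% interval at the brightest probe set of the 36 other measured genes of the IGF pathway, coloured by list; filled circles passed the limma test. The filled circles are Ddit4 and Igf2bp1 above 0 and Inpp5d and Inpp5k below.

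Each of these 4 calls at the brightest probe set was lost when certain single arrays were left out. Inpp5d lost its call without any 1 array other than control 4 and when its probe sets were averaged, Inpp5k without any 1 array other than control 4 at the brightest probe set, Ddit4 without control 1, control 2 or any 1 Dicer1-deficient array, and Igf2bp1 without Dicer1-deficient array 1 or 2 (limma adjusted p from 0.0542 to 0.176 where lost by leaving out an array). In those settings the log2 fold changes were -0.67 to -0.53 for Inpp5d, -0.90 to -0.75 for Inpp5k, 0.56 to 0.65 for Ddit4 and 1.07 to 1.09 for Igf2bp1. Median centring also lost Inpp5d (-0.64, adjusted p = 0.104) and Ddit4 (0.56, adjusted p = 0.0599), and an intensity trend lost Ddit4 (adjusted p = 0.088).

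The genes whose log2 signals ran most like Igfbp2 over the 7 arrays were Susd2 (Pearson r = 0.997), Tbc1d8 (0.995) and Nhsl1 (0.993), as a description over 7 arrays that share their group difference and the position of control 4. Susd2 read 8.92, 9.27, 9.15 and 9.83 in controls 1 to 4 and 10.49, 10.55 and 10.38 in the Dicer1-deficient arrays, with control 4 again between the other controls and the Dicer1-deficient arrays. Susd2 (log2 fold change 1.18) and Tbc1d8 (0.89) passed (limma adjusted p = 0.0285 each), and Nhsl1 (0.30) did not. In all, 38 genes had r over 0.95 with Igfbp2.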

How the data were processed

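For 7 Affymetrix arrays of RPE total RNA the authors deposited log2 signals in 1 table. RMA and Partek 6.6 appear in the submitters' processing notes with no role stated. That values are log2 follows from their range (2.71 to 13.5). Build and filters: not given in the sources used here. Quantile steps in RMA would remove differences in total RNA.

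Of 65535 probe sets, 53644 had 1 gene symbol (877 several, 11014 unnamed here). Symbols were updated through RefSeq. Nearly all genes (4918 of 5017) lie on 5 chromosomes, so much of the pathway was not analysed here. Groups came from the labels, and arrays were numbered only to name them. Each gene was read at its brightest probe set (by mean of all arrays) and fitted with limma (lmFit and eBayes, 2.82 prior and 5 residual degrees of freedom, two-sided, Benjamini-Hochberg over the whole table). All probe sets were fitted likewise, with diffSplice along genes. Named are all members, pathway genes past 0.05 and up to 3 per list by p, and the 3 genes most like a called member. Pik3c2b and Akt2 were named after their values were seen. Members and lists were chosen with earlier results of these data known.

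Tested on simulated data (10 runs, 5017 genes, 200 changed), the gene test recovered 33.9% of changes of 0.5, 75.8% of 1 and 94.2% of 2 on the log2 scale, with 6.09% of calls false. The simulated noise was independent and equally wide in all arrays, and no array stood apart as control 4 did. Rates for the real arrays may therefore differ. The F test along genes recovered 90.2% of genes with 1 probe set changed by 2, with 32.5% of calls false; the deviation test, added for that reason, had 4.71%. Promoters came from RefSeq. Array number limits the precision. R 4.3.3, limma 3.58.1, Python 3.11.15, pandas 2.3.3, scipy 1.17.1 and matplotlib 3.10.9 were used.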

Additional observations from a re-analysis of the deposited data

Results flagged for a closer look

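In 2 of the 9 IGF genes a control array lay far from the other 3 by Dixon's test, in both cases control 4: Igf1 at 11.91 and Igfbp1 at 6.83. Of 17 other pathway genes named, 4 had such an array. Gh had control 4 at 6.69, Pik3c2b control 4 at 10.72 and Ddit4 control 3 at 6.68, each above the other 3 controls, and Akt2 had control 4 at 9.35, below them. Chance flags about 1 group in 20 in this test. Over all genes 561 (11.2%) had such a control array, which was control 4 in 487.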

How the results depend on the processing

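Alternatives were compared with the fit of brightest probe sets on 7 arrays, and where a result changed the cause was not tested unless stated. Over 134 values of the 9 genes, 110 kept direction and side of the threshold, 7 (all Igfbp2) lost the call, 11 gained one and 6 changed sign, none of a called value. The count of IGF genes called was 1, and 0 with median centring, 2 with the filter on dim genes or an intensity trend, 3 with array weights, 6 with probe sets averaged and control 4 left out, and 0 to 3 without 1 array. Of IGF probe sets 3 were called, 8 with array weights and 0 to 7 without 1 array. Of other pathway genes 4 were called, 2 with median centring, 8 with probe sets averaged and control 4 left out, and 0 to 5 without 1 array. Over all genes 117 were called, 294 on the mean of probe sets (95 shared), 853 on that mean without control 4, 385 with array weights and 33 to 260 without 1 array, the highest being without control 4. No alternative called an IGF gene for unequal change along its probe sets.

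Signs changed for Igfbp5 on the mean of probe sets (-0.14, and -0.15 without control 4), for Igfbp1 on that mean without control 4 (0.003), and for Socs2 with quantile normalization again (0.031), array weights (0.019) and when 1 array was left out (-0.117 to 0.022, positive without control 4). On the mean of probe sets they changed for Grb7 (-0.002), Mdm2 (-0.10, and -0.16 without control 4) and Stc2 (-0.068, and -0.055 without control 4), for Foxo3 on that mean without control 4 (-0.008), and for Stc2 with array weights (-0.036) and when 1 array was left out (-0.083 to 0.244, negative without control 3, control 4 or Dicer1-deficient array 3). For Igfbp2 and Igfbp3, averaging probe sets together with median centring or leaving out 1 array was chosen after seeing the data. Of these 7 settings Igfbp2 passed in 7 and Igfbp3 in 1 (median centring, -0.60, adjusted p = 0.0237). The median over all genes moved by less than 0.1 under either rescaling. No paired analysis was possible because the labels give no replicate numbers, and the numbers used here only name the arrays. Probe sets below the table's median (9 of 66) were not shown to be above background,.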
